A study of Mus musculus with 2 samples.

Results

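The anti-Rtl1 microRNAs are 5 microRNA genes, Mir431, Mir433, Mir127, Mir434 and Mir136, that lie on the plus strand of mouse chromosome 12 opposite the protein-coding gene Rtl1. They were chosen by name and position in the GENCODE M21 annotation of the mm10 build. The rule uses no measured value, but earlier results of these data were known when the choice was made. They are 5 of the 2202 microRNA genes in the deposited counts. Hippocampal tissue, labelled as a layer of the hippocampus, was taken from male mice of the strain B6CASTF1/J aged 10 days, and each of the 2 biological replicates is labelled with 3 males. This strain is an F1 cross between C57BL/6J and CAST/EiJ, and both replicates carry the same genotype with no treatment in the labels. There is 1 group, so the comparisons are between the genes and between the libraries, not between conditions. The labels give the replicates different animal numbers but the same donor identifier, so differences between them may be technical. The p-values take in counting error only and do not measure the spread between animals.

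The Dlk1-Dio3 region is imprinted: its protein-coding genes, Rtl1 among them, are expressed from the paternally inherited chromosome, and its noncoding transcripts and microRNAs from the maternally inherited one. Rtl1, also called Peg11, is a gene derived from a retrotransposon and is known for its role in the placenta of the mouse. Because the anti-Rtl1 microRNAs are transcribed across Rtl1 in the other direction, they pair with its messenger RNA along their whole length, and cleavage of Rtl1 RNA by them has been described in the mouse. By convention the mother's strain comes first in a hybrid's name, so the maternal chromosome would here be that of C57BL/6J, the strain of the reference genome. The counts do not separate alleles.

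The libraries were made from RNA fragments below 30 nt, and the values are raw read counts per hairpin gene, on the strand of the gene unless said otherwise. The counts on microRNA genes totalled 3495401 in replicate 2 and 4815761 in replicate 1. Levels are given in CPM, counts per 1000000 of these counts, where a gene with 0 counts could still have had up to 0.858 CPM in replicate 2 and 0.623 CPM in replicate 1. Intervals and limits of this kind are exact Clopper-Pearson intervals at the 95% level or a limit of 3 counts, and they cover counting error only. Reads that fit several places were not assigned to genes. None of the 5 anti-Rtl1 genes shares 20 consecutive bases with another microRNA gene, whereas 1084 of the 2202 genes do. Most other plus-strand microRNA genes between Dlk1 and Dio3 share none either.

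The mature sequences of both arms of each hairpin are shown first, because the seed, bases 2 to 8 from the 5′ end, sets which transcripts a microRNA can recognise. They come from RefSeq (GRCm38.p6), which matched 5 of 5 genes, and run 5′ to 3′ with the seed in capitals. The genes follow their order along the plus strand.
miR-431-5p: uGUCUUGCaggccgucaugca
miR-431-3p: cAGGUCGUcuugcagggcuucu
miR-433-5p: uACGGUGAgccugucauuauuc
miR-433-3p: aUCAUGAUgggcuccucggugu
miR-127-5p: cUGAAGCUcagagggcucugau
miR-127-3p: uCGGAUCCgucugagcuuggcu
miR-434-5p: gCUCGACUcaugguuugaacca
miR-434-3p: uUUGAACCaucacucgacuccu
miR-136-5p: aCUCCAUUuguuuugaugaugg
miR-136-3p: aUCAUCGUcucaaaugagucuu

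The 10 arms had 10 different seeds, and none of these seeds occurred in another of the 1679 mature mouse sequences in the RefSeq table. A seed held by a single mature sequence was common in that table, with 72.1% of the sequences of this kind. The anti-Rtl1 genes thus lie side by side but have no seed in common, either with each other or with a microRNA from elsewhere in the table. The counts are per hairpin, so the reads of the 5p and 3p arms could not be separated.

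All 5 hairpins lay within the coding sequence of Rtl1, which spans chr12:109590172-109595403 on the minus strand. From the first to the last, the hairpins spanned 4942 bases of it, chr12:109590447-109595388. This span includes gaps of 1177, 1007, 1590 and 727 bases between neighbours. GENCODE M21 has no plus-strand host gene over any of the 5. The exact reverse complement of each of the 10 arms was found once in the Rtl1 transcript. Over 141767 annotated transcripts of 55450 genes, no other gene held a full site for 8 of the 10 arms. The 2 arms of Mir136 had a further full match in Mir3071, a microRNA gene on the minus strand of the same bases. The sites of miR-127-3p and miR-434-3p are printed as examples, since Mir127 and Mir434 differed most between the libraries. They are in Rtl1 sense orientation, with the bases opposite the seed in capitals.
Rtl1 site of miR-127-3p: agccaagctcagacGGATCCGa
Rtl1 site of miR-434-3p: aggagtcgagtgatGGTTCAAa
The first lies at coding bases 2495 to 2516 of Rtl1, across codons 832 to 839, and the second at coding bases 818 to 839, across codons 273 to 280. The sites of Mir136 lie nearest to the Rtl1 start codon, from codon 6 to codon 25, and those of Mir431 lie nearest to its stop codon, from codon 1627 to codon 1649.

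Of the 5 genes, Mir127 was the most abundant and Mir136 the least, and the ratio of their mean levels was 725. Mir127, which restrains Rtl1 in the mouse placenta, is at chr12:109592846-109592915 and had 37071 CPM in replicate 2 against 84779 CPM in replicate 1, from 129577 counts in replicate 2 and 408277 in replicate 1. It ranked 7 among all 2202 genes in replicate 2 and 2 in replicate 1, with a mean of 60925 ± 33735 CPM (SD, n = 2). Its level was high in both libraries and the higher of them was replicate 1.

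Mir433, at chr12:109591715-109591838, had 17747 CPM in replicate 2 against 14092 CPM in replicate 1, from 62032 counts in replicate 2 and 67864 in replicate 1. Its mean was 15919 ± 2584 CPM (SD, n = 2), rank 14 of 2202. The lower Mir127 library, replicate 2, was the higher Mir433 library, and even so the ranges of the 2 genes did not overlap.

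Mir431 has been studied in the mouse for its part in the regrowth of sensory axons. This gene, at chr12:109590447-109590537, had 2996 CPM in replicate 2 against 2426 CPM in replicate 1, from 10473 counts in replicate 2 and 11685 in replicate 1. Mir434, at chr12:109594506-109594599, had 3378 CPM in replicate 2 against 1611 CPM in replicate 1, from 11808 counts in replicate 2 and 7760 in replicate 1. Their means were 2711 ± 403 CPM for Mir431 and 2495 ± 1249 CPM for Mir434 (SD, n = 2 for both). The range of Mir431 lay inside that of Mir434, and Mir434 was the higher gene in replicate 2 but the lower one in replicate 1, so their order was not settled by these libraries.

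Mir136, at chr12:109595327-109595388, had 76.4 CPM in replicate 2 (interval 67.5 to 86.1, 267 counts) and 91.8 CPM in replicate 1 (interval 83.4 to 100.8, 442 counts). Its mean was 84.1 ± 10.9 CPM (SD, n = 2), rank 217 of 2202. Its intervals overlapped between the libraries.

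**Figure D1:**
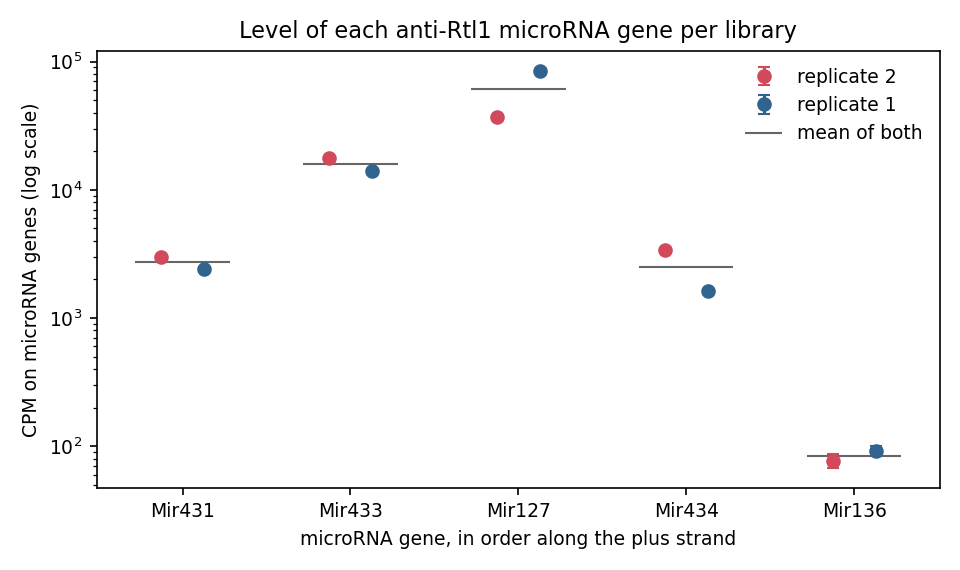
Level of each anti-Rtl1 gene in CPM on a log axis, in order along the plus strand, with replicate 2 in red, replicate 1 in blue, counting intervals as bars (mostly smaller than the points) and the mean of both as a grey line. Mir127 lies between 37071 and 84779 CPM and Mir136 between 76.4 and 91.8 CPM, and the Mir431 range lies inside that of Mir434.

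The hairpins are of unequal length, and the order was also read per length. The mature arms are all 21 or 22 bases long, so this division is a description and not a correction. Mir127 had 87036 CPM per 100 hairpin bases on average, Mir433 had 12838, Mir431 had 2979, Mir434 had 2654 and Mir136 had 135.6. The order of the mean levels per length was that of the mean levels per gene.

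Ratios between the genes need no scaling of the libraries. The ratio of Mir433 to Mir431 was 5.92 in replicate 2 (interval 5.80 to 6.05) and 5.81 in replicate 1 (interval 5.69 to 5.92), intervals that overlap. It moved by 1.02 times between the libraries, the least of the 10 pairs. Mir433 and Mir431 are direct neighbours, while Mir127, the next gene along the strand, kept no such ratio to either.

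The ratio of Mir127 to Mir434 moved most of the 10 pairs. It was 11.0 in replicate 2 (interval 10.8 to 11.2) and 52.6 in replicate 1 (interval 51.4 to 53.8), a change of 4.79 times. Mir127 to Mir433 was 2.09 in replicate 2 and 6.02 in replicate 1, and Mir127 to Mir431 was 12.4 in replicate 2 and 34.9 in replicate 1. Mir127 to Mir136 was 485 in replicate 2 and 924 in replicate 1. All 4 ratios with Mir127 on top were thus lower in replicate 2, by 1.90 to 4.79 times.

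The 5 genes together held 214157 counts in replicate 2 and 496028 in replicate 1. That was 6.13% of microRNA counts in replicate 2 (interval 6.10% to 6.15%) and 10.3% in replicate 1 (interval 10.27% to 10.33%), a mean of 8.21% ± 2.95 (SD, n = 2). Mir127 supplied 60.5% of the anti-Rtl1 counts in replicate 2 and 82.3% in replicate 1. Mir433 supplied 29.0% in replicate 2 and 13.7% in replicate 1, and Mir431 4.89% in replicate 2 and 2.36% in replicate 1. Mir434 supplied 5.51% in replicate 2 and 1.56% in replicate 1, and Mir136 0.125% in replicate 2 and 0.0891% in replicate 1. With Mir127 left out, a choice made once the values had been seen, the other 4 genes took 2.42% of microRNA counts in replicate 2 and 1.82% in replicate 1, so the direction between the libraries turned round.

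**Figure D2:**
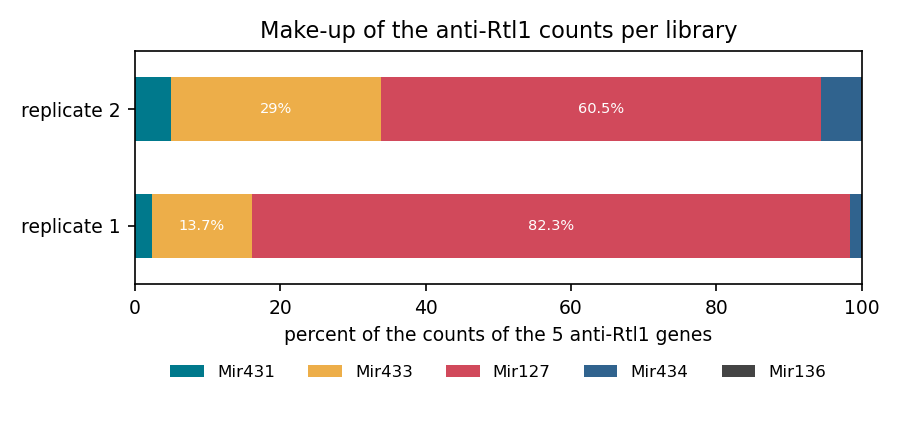
Share of each gene, in percent, of the counts of the 5 anti-Rtl1 genes, with replicate 2 above replicate 1. Mir127 holds 60.5% in replicate 2 and 82.3% in replicate 1, and the segment of Mir136 (0.125% in replicate 2, 0.0891% in replicate 1) is too thin to see.

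Counts were compared between the libraries by an exact binomial test, taken on both sides, over all 540 genes with at least 10 counts in total, with Benjamini-Hochberg adjustment. A call needed an adjusted p below 0.05 together with a log2 ratio of 1 or more in size. The test compares these libraries and takes in counting error only. Of the 5 anti-Rtl1 genes 2 were called, against 101 of the 540 genes (18.7%) and against 14 of the 110 genes with a mean of at least 1000 CPM (12.7%). Mir127 was lower in replicate 2, with a log2 ratio (replicate 2 over replicate 1) of -1.19, and 7.22% of tested genes were called in that direction. Mir434 was higher in replicate 2, with a log2 ratio of 1.07, and 11.5% of tested genes were called in that direction. Both adjusted p-values were 0 at the precision of the computation.

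Mir434 lay at the edge of the threshold. With TMM sizes its log2 ratio was 0.998 and with DESeq2 size factors 0.90, so 1 of 5 genes was called under each, where 17.8% and 18.3% of tested genes were. Mir127 was called under both, its log2 ratio being -1.26 under TMM and -1.36 under DESeq2. The median over all 540 genes was 0.17 on the log2 scale when library totals were used, 0.10 under TMM and 0.00094 under DESeq2, so Mir127 lay below that median and Mir434 above it under each scaling. With the counts of the Dlk1-Dio3 region as the total, Mir127 in turn lay at the edge, with a log2 ratio of -1.002. Mir434 was at 1.26 with this total. Mir127 itself supplied 129577 of the 740754 region counts in replicate 2 and 408277 of 1165701 in replicate 1. This total thus moves with Mir127 and is no independent scaling for it.

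Mir431, Mir433 and Mir136 had log2 ratios of 0.30, 0.33 and -0.26 and were not called. Their adjusted p-values from the binomial test were 2.6e-54 for Mir431, 0 at the precision of the computation for Mir433, and 0.0337 for Mir136. At the counts of Mir431 and Mir433, small ratios pass the adjusted p alone. With no minimum on the ratio, 5 of 5 genes and 55.7% of all tested genes passed. Mir136 did not pass once the counts of the Dlk1-Dio3 region were the total. Its log2 ratio was then -0.07 and its adjusted p 0.63 by the same binomial test. As that total moves with Mir127, this does not show that Mir136 followed the rest of its region. The median log2 ratio of the 5 genes was 0.30, against 0.17 over all tested genes, and the median absolute ratio was 0.33 against 0.54. Of the tested genes, 17.6% had a larger absolute ratio than Mir127 and 20.7% a larger one than Mir434.

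**Figure D3:**
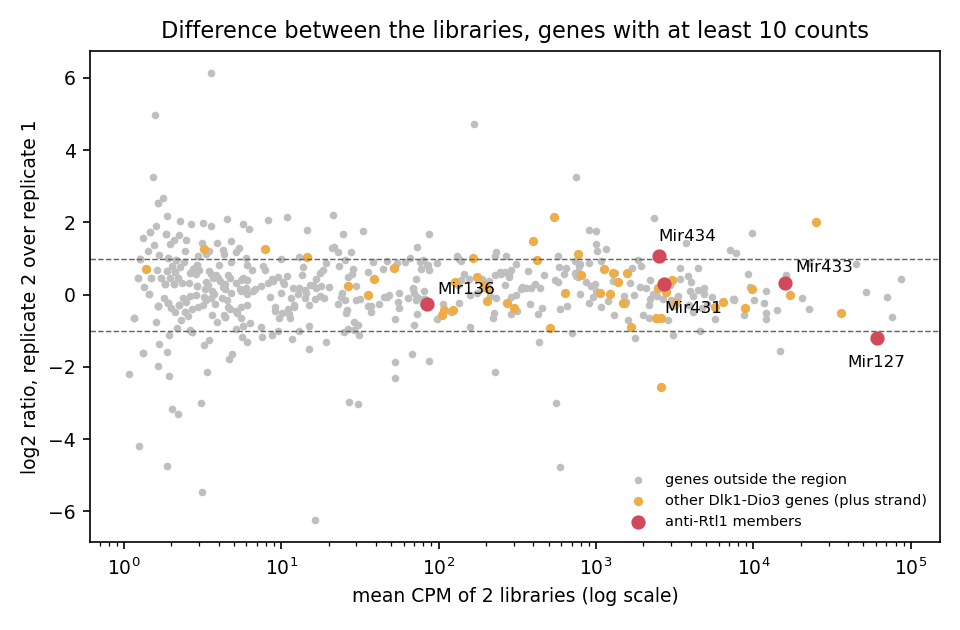
Log2 ratio of replicate 2 over replicate 1 against mean CPM (log axis) for the 540 tested genes, with the anti-Rtl1 genes in red, other plus-strand Dlk1-Dio3 genes in yellow and dashed lines at a ratio of 1 and -1. Mir127 (-1.19) and Mir434 (1.07) lie outside the lines on opposite sides, and Mir431, Mir433 and Mir136 lie between them.

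The libraries also differed in microRNAs typical of other cells. The summed level of 3 red blood cell microRNAs was 76.4 CPM in replicate 2 against 1229 CPM in replicate 1, that of 7 microRNAs of choroid plexus and ciliated cells was 5333 CPM in replicate 2 and 2582 CPM in replicate 1, and that of the endothelial Mir126a was 9301 CPM in replicate 2 and 14888 CPM in replicate 1. The 3 oligodendrocyte microRNAs had 1740 CPM in replicate 2 against 1037 CPM in replicate 1, the 2 of mural cells 4390 CPM in replicate 2 and 3962 CPM in replicate 1, and the 4 of myeloid cells 906 CPM in replicate 2 and 495 CPM in replicate 1. Mir150, which is also known from lymphocytes, held most of the myeloid sum, with 776 CPM in replicate 2 against 372 CPM in replicate 1, and the other 3 summed to 130.5 CPM in replicate 2 against 122.7 CPM in replicate 1. All 3 red blood cell microRNAs were lower in replicate 2, and all 7 of choroid plexus and ciliated cells were higher. Mir451a set most of the red blood cell difference, with 41.5 CPM in replicate 2 against 1143 CPM in replicate 1. Mir486 differed little, with 28.3 CPM in replicate 2 against 31.6 CPM in replicate 1. Some of the 7 microRNAs of choroid plexus and ciliated cells had few counts. The part of these cells in the differences of Mir127 and Mir434 was not tested, and fewer cells of a type cannot be told apart from less RNA per cell in whole tissue. The 13 neuronal microRNAs summed to 95159 CPM in replicate 2 against 76796 CPM in replicate 1. In replicate 2, 8 of them were higher and 5 lower. Mir139 alone set the direction of the sum, with 57346 CPM in replicate 2 against 31820 CPM in replicate 1. The other 12 summed to 37812 CPM in replicate 2 against 44976 CPM in replicate 1. Among these, Mir124a-1, Mir124a-2, Mir124a-3 and Mir9-2 had at most 13 counts in a library, and Mir124a-2 had 0 in replicate 1. The tally of higher and lower genes includes them. These genes have copies at other loci in the list, and reads that fitted several places were not assigned. Their counts and the neuronal sums may therefore be too low, and low counts here do not show that the RNA was scarce. Liver Mir122 had 31.5 CPM in replicate 2 against 39.5 CPM in replicate 1. Of 6 striated muscle microRNAs 5 were at 0, the remaining one (Mir206) having 32.6 CPM in replicate 2 against 102 CPM in replicate 1. Some of those at 0 also have copies at other loci, so their 0 need not mean that the RNA was absent.

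Within the Dlk1-Dio3 region, 59 plus-strand microRNA genes lie between Dlk1 and Dio3, and 53 of them had counts in both libraries. The 5 anti-Rtl1 genes held 28.9% of the counts of the region in replicate 2 and 42.6% in replicate 1, a mean of 35.7% ± 9.65 (SD, n = 2). The other 9 genes of the same run (neighbours at most 10000 bases apart) took 3.58% of all microRNA counts in replicate 2 and 4.74% in replicate 1. The 39 genes of the distal run at Mirg took 10.9% in replicate 2 and 8.56% in replicate 1. The anti-Rtl1 share was thus below that of the distal run in replicate 2 and above it in replicate 1. This order was not tested, since there are 2 libraries.

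The highest gene of the other 9 was Mir770, with 29757 CPM in replicate 2 against 42211 CPM in replicate 1 and a log2 ratio of -0.50. In the distal run the highest mean was that of Mir487b, with 39917 CPM in replicate 2 against 9941 CPM in replicate 1, and in the rest of the region that of Mir370, with 2985 CPM in replicate 2 and 3483 CPM in replicate 1. Mir487b shares bases with another gene, so its value is uncertain. Of the 8 tested genes among the other 9 of the run, 2 were called, both higher in replicate 2. Of 37 tested distal genes 5 were called higher and 1 lower. Over all 540 tested genes 18.7% were called, 11.5% higher and 7.22% lower in replicate 2.

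Mir432, annotated between Mir434 and Mir136 on the same strand, had 0 counts in both libraries, which allows up to 0.858 CPM in replicate 2 and 0.623 CPM in replicate 1. It is not one of the 5 genes and is named because it lies within their span.

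**Figure D4:**
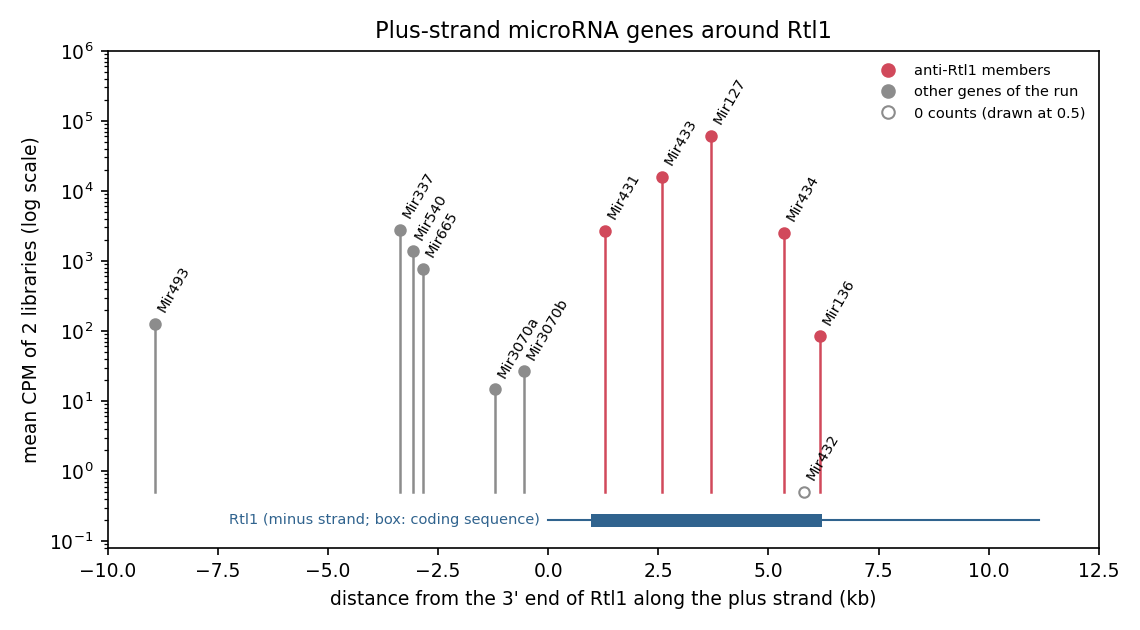
Mean CPM of 2 libraries (log axis) for the plus-strand microRNA genes from Mir493 to Mir136 (Mir770 and Mir673, farther upstream, are not drawn), against the distance in kb from the 3′ end of Rtl1, whose coding sequence is the blue box. The anti-Rtl1 genes (red) all lie over the box and climb to 60925 CPM at Mir127, and Mir432 (open circle, drawn at 0.5) had 0 counts.

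No read on the Rtl1 strand was counted at any of the 5 hairpins, in either library. The opposite-strand count was 0 beside 214157 sense counts in replicate 2 and 0 beside 496028 in replicate 1, which allows an opposite-strand share of up to 0.00140% in replicate 2 and 0.000605% in replicate 1. At Mir136 the limit was looser, at 1.12% in replicate 2 and 0.679% in replicate 1. These are limits on small RNAs below 30 nt and say nothing of full-length Rtl1 messenger RNA. Mir770, Mir370 and Mir487b, which do not lie over Rtl1, also had an opposite-strand count of 0 in both libraries. A count of 0 was thus not particular to the genes opposite Rtl1.

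Mir136 lies wholly inside Mir3071 (chr12:109595318-109595397, minus strand), and its bases can form a hairpin on either strand. The 2 arms of Mir3071 are shown with the bases opposite the arms of Mir136 in capitals, 20 bases for the first and 19 for the second.
miR-3071-3p: AUCAUCAAAACAAAUGGAGUcc
miR-3071-5p: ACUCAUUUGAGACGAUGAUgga
All 267 reads in replicate 2 and all 442 in replicate 1 fell on the Mir136 strand, and Mir3071 had 0 sense counts in both. In the unstranded column both genes read 0, so Mir136 is lost when strand is not used. Some other genes of the region that had sense counts also read 0 in that column. The other 4 anti-Rtl1 genes had the same counts in the unstranded and the sense column.

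The hairpins themselves differed in length, base composition and predicted folding energy. The RefSeq hairpins are printed for Mir127 and Mir136, the highest and the lowest gene, and for Mir431 and Mir434, whose arms repeat each other, with the mature arms in capitals.
Mir127: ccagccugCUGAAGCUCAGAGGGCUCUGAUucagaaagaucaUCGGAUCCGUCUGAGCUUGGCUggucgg
Mir136: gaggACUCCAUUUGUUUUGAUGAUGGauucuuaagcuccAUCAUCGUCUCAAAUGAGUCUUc
Mir431: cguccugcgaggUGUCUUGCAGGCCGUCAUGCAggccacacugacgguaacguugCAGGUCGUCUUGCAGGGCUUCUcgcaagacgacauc
Mir434: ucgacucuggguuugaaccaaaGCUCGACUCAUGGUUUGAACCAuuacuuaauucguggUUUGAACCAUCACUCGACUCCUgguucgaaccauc
The G and C content was 57.1% in Mir127, 40.3% in Mir136, 60.4% in Mir431, 45.7% in Mir434 and 56.5% in Mir433. The minimum folding energy from RNAfold was -50.1 kcal/mol per 100 bases for Mir127, the lowest of the 5, followed by -47.7 for Mir431, -45.5 for Mir136, -39.8 for Mir434 and -36.1 for Mir433. The median of the 5 was -45.5, and that of 49 other hairpins of the region was -41.8, within a range of -66.8 to -24.4. The order of folding energies was not the order of levels, since Mir433, with the highest energy, was the gene with the second highest level.

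Both arms of Mir431 contain the run GUCUUGCAGG of 10 bases, and both arms of Mir434 contain the run UUUGAACCA of 9 bases. In Mir434 that run covers the seed of the 3p arm, and in Mir431 it covers the seed of the 5p arm. Among 677 mouse hairpins with 2 arms in the RefSeq table, the longest run shared by the arms had a median of 4 bases, and 4 hairpins had a run of at least 10 bases and 9 a run of at least 9. The arms of Mir127, Mir433 and Mir136 shared 5, 5 and 4 bases. This is a description of the letters and was noticed after the sequences were seen.

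For each anti-Rtl1 gene, the nearest of 535 other tested genes was found by Euclidean distance in log2(CPM + 1) over the 2 libraries, which describes level and library difference together. For Mir431 it was Mir1983, at a distance of 0.033, for Mir136 Mir3093 at 0.086, and for Mir433 Mirlet7e at 0.15. For Mir434 it was Mir449a, one of the 7 microRNAs of choroid plexus and ciliated cells above, at 0.49, with 2463 CPM in replicate 2 against 1416 CPM in replicate 1. For Mir127 it was Mir99a at 0.70, with 59747 CPM in replicate 2 against 91288 CPM in replicate 1. None of these 5 genes lies in the Dlk1-Dio3 region, but 487 of the 535 genes searched are not among its plus-strand genes either. Mir127 and Mir434 thus had no gene as close as those of the other members.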

How the data were processed

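Raw counts of reads on each microRNA gene were deposited by the authors, 1 file per library, with 3 columns (unstranded and each strand) and 4 lines of totals. Per the notes deposited with the files, the build was mm10 and the annotation M21, and each file came from its own library. Aligner, counter and their versions: not given in the sources used here. Sense counts were column 3, which had the larger total over genes. The lines of totals name no gene and were left out: 39.8% of reads in replicate 2 and 37.7% in replicate 1 fitted several places. All 2202 identifiers matched GENCODE M21.

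CPM, ratios, intervals and the binomial test with Benjamini-Hochberg adjustment over 540 genes were computed from the counts, with 0.5 counts added before log2 ratios. With 1 group there is no second group for edgeR's quasi-likelihood test to contrast, and a fit with each library as its own group has no residual degrees of freedom. edgeR (4.0.16) supplied TMM sizes and DESeq2 (1.42.0) size factors. The test was checked on simulated counts. The comparison lists were taken by position. Named genes were the members, other microRNA genes over Rtl1 or in the span of the members, the highest gene of each list and the gene nearest to each member. Marker microRNAs came from lists by cell type. Mir139, Mir150, Mir206, Mir451a, Mir486, Mir9-2 and the Mir124a genes were singled out once their values had been seen, outside that rule. The members and lists were chosen with earlier results of these data known. Python 3.11.15, scipy 1.17.1, pandas 2.3.3, RNAfold 2.7.2 and R 4.3.3 were used.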

Additional observations from a re-analysis of the deposited data

How the results depend on the processing

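The anti-Rtl1 share of 8.21% became 3.06% with all reads as the denominator and 2.12% with Mir127 not counted as a member, and the share of the region of 35.7% became 9.47% without Mir127. Leaving Mir127 out was chosen after seeing the data. With each replicate left out the shares ranged from 6.13% to 10.3% and from 28.9% to 42.6%, and the ratio of Mir127 to Mir136 from 485 to 924 around 725 (641.8 per hairpin base). The 2 genes called became 1 with TMM sizes, 1 with DESeq2 size factors, where Mir434 fell just under the ratio minimum, and 5 with no minimum on the ratio, where 301 of 540 genes passed against 101. The number of members called was 2 with a filter of 1 count (111 of 797 genes called) and with one of 100 counts (59 of 320). With unstranded counts it was also 2, beside 96 of 514 genes, and Mir136 was not among the genes tested there. Called genes were higher in replicate 2 in 61.4% of cases with library totals, 53.1% with TMM and 44.4% with DESeq2. The opposite-strand share was 0 in each library. With unstranded counts Mir136 read 0, so its log2 ratio and the ratio of Mir127 to Mir136 could not be given. With the counts of the Dlk1-Dio3 region as the total, the log2 ratio of Mir127 was -1.002 and that of Mir136 -0.07. For Mir136 the binomial adjusted p was 0.63 against 0.0337. The counts of Mir127 are part of that total and move it. No log2 ratio of the 5 genes changed sign under that total, TMM, DESeq2, 5 added counts or, Mir136 aside, unstranded counts. No paired analysis was possible because the labels give 1 group. With 2 libraries a count of calls could not be made with 1 left out. Depth limits Mir136 most, at 267 counts in replicate 2 and 442 in replicate 1.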
